A study of Mus musculus with 2 samples.

Results

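The genes described here are the enzymes of the tricarboxylic acid (TCA) cycle together with the enzymes that let pyruvate and related carbon into it. They were chosen by symbol, 32 genes of 27998 in the deposited tables, and all 32 were found in both libraries. The samples were eye organoids grown from Rax-GFP mouse embryonic stem cells, an ESC line with GFP knocked in at 1 allele of Rax, a transcription factor of the eye field. Whole organoids were dissociated and profiled by droplet single-cell RNA sequencing at culture day 6 and at culture day 4, with no treatment other than culture in the labels, and both days share the same line, which is 1 line only. Each day was 1 library made from a pool of 3 biological experiments, so no difference below has a replicate check and no test was made. The study asked how glucose metabolism bears on the formation of the optic vesicle, the outpocketing of the forebrain that becomes the eye.

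Mitochondria take in pyruvate, the end product of glycolysis, and the pyruvate dehydrogenase complex turns it into acetyl-CoA, a step that kinases switch off and phosphatases switch on by adding or removing phosphate on the complex. The TCA cycle then oxidises acetyl-CoA and passes the electrons to the respiratory chain. Partner enzymes of the cytosol and the mitochondria convert malate, aspartate and citrate carbon, which carriers move across the mitochondrial membrane. Some of these enzymes make NADPH, the reducing agent of lipid synthesis and antioxidant defence. Pyruvate that does not enter mitochondria can instead be reduced to lactate. Transcript levels do not give the activity of these enzymes or the flux through them.

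After filtering, 6640 of 7446 cell barcodes remained at day 6 and 8147 of 9114 at day 4. The summed unique molecular identifiers (UMIs, which count captured transcripts) were 87794318 at day 6 and 98643495 at day 4, with medians of 12515.5 and 11216 UMIs per cell, and 78 barcodes were shared between the kept cells of the libraries. The 32 genes took 0.267% of all UMIs at day 6 and 0.231% at day 4. Levels are given as CPM, the counts of a gene per 1000000 summed UMIs of a group of cells. Intervals are exact 95% intervals that cover counting error only, not variation between cultures.

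Cells were grouped by the UMIs of 7 marker genes. Day 6 had 1877 cells with Six6, a retinal progenitor transcription factor, 600 with Fezf2 and 239 with Wnt8b, which mark forebrain regions, 64 with Col4a1, a basement membrane collagen, and 493 with Dppa5a, a gene of pluripotent cells. Sox10, a neural crest gene, reached its threshold in 25 day 6 cells, too few to compare, so 63 cells with 1 or more Sox10 UMIs were described instead. This Sox10 group was defined after the data had been seen. Day 4 had 1333 Dppa5a cells, 2911 cells with Fgf5, a gene of the epiblast after implantation, and 71 Fezf2 cells. Cells at the thresholds of several markers, 399 at day 6 and 882 at day 4, stood in no group and on no side of a comparison between groups.

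The other genes of each group fitted its marker. Six6 cells held 178 CPM of Rax and 383 CPM of Pax6, both eye field genes. Dppa5a cells of day 6 and day 4 held 282 and 414 CPM of Tdgf1, a pluripotency gene, and Col4a1 cells held 202 CPM of Gata6 and 142 CPM of Gata4, genes of primitive endoderm. The labels call both libraries retina progenitors, but Rax stood at 94.3 CPM at day 6 and at 3.45 CPM at day 4. Pou5f1, a pluripotency factor, stood at 27.2 CPM at day 6 and 328 CPM at day 4.

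Idh2 and Me1, which differed most between the days among the genes with a mean of 10 CPM or more, are shown with the sequence around their start sites. Idh2 encodes the mitochondrial isocitrate dehydrogenase that makes NADPH and lies at chr7:80094846-80115392 on the minus strand (GRCm38). Me1 encodes the cytosolic malic enzyme, which makes NADPH while it turns malate into pyruvate, and lies at chr9:86581371-86695953 on the minus strand. The windows are RefSeq promoters on GRCm38.p6, 300 bases each, at chr7:80115301-80115600 for Idh2 and chr9:86695865-86696164 for Me1, both read 5′ to 3′ on the minus strand. Capitals mark a match to the antioxidant response element, and the Idh2 window held none of the motifs searched.
Idh2: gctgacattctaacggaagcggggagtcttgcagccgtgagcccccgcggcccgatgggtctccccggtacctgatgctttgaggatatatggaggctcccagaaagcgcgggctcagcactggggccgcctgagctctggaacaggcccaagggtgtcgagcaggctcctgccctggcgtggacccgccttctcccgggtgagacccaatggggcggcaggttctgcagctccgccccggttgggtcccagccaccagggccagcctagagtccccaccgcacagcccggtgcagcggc
Me1: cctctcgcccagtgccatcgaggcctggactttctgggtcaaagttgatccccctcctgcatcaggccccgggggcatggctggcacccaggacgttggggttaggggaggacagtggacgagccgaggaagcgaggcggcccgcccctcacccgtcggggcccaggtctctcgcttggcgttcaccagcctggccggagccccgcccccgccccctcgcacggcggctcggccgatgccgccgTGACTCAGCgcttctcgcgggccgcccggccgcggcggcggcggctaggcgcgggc

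Windows were found for 29 of the 32 genes, and not for Idh3a, Sdhc and Pdp1. Both strands were searched for 4 motifs, in the first window of each gene only. Ogdh had 6 windows and Pdk2, Pcx, Idh1 and Me1 had 2 each, so their other windows were not searched. The antioxidant response element, TGACNNNGC, was in 6 windows (20.7%), those of Me1, Mdh1, Dlst, Pdhb, Sucla2 and Idh3g, and in 12.5% of the windows of 27025 genes. The match in Me1 also contains TGACTCA, the letters of the AP-1 motif. The NRF1 motif, GCATGCGC, was in the window of Sdhb (3.45%, against 2.80% of all windows). The estrogen-related receptor motif, AAGGTCA, was in those of Sdhd and Got1 (6.90%, against 4.66%), and the E-box CACGTG in those of Pdk2 and Pcx (6.90%, against 7.24%). A match describes letters only and does not show binding.

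Between the days, 1 of 28 measured genes was higher by size and 1 was lower, while 26 stayed within 1.5-fold. A gene was called by size where its ratio was 1.5-fold or more either way and its interval left out 1, among genes with a mean of 10 CPM or more over the groups compared. Of all 6700 genes measured, 13.3% were higher and 6.28% lower at day 6 by the same rule. The median log2 ratio of the 28 genes was 0.20, beside 0.14 for all genes. By these medians, the set as a whole lay close to the shift shared by all genes. Ratios were above 1 for 22 of the 28 genes and below 1 for 6, a split that was not counted over all genes. Pdk2, Pdk4, Pdp1 and Pcx were under the minimum.

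**Figure D1:**
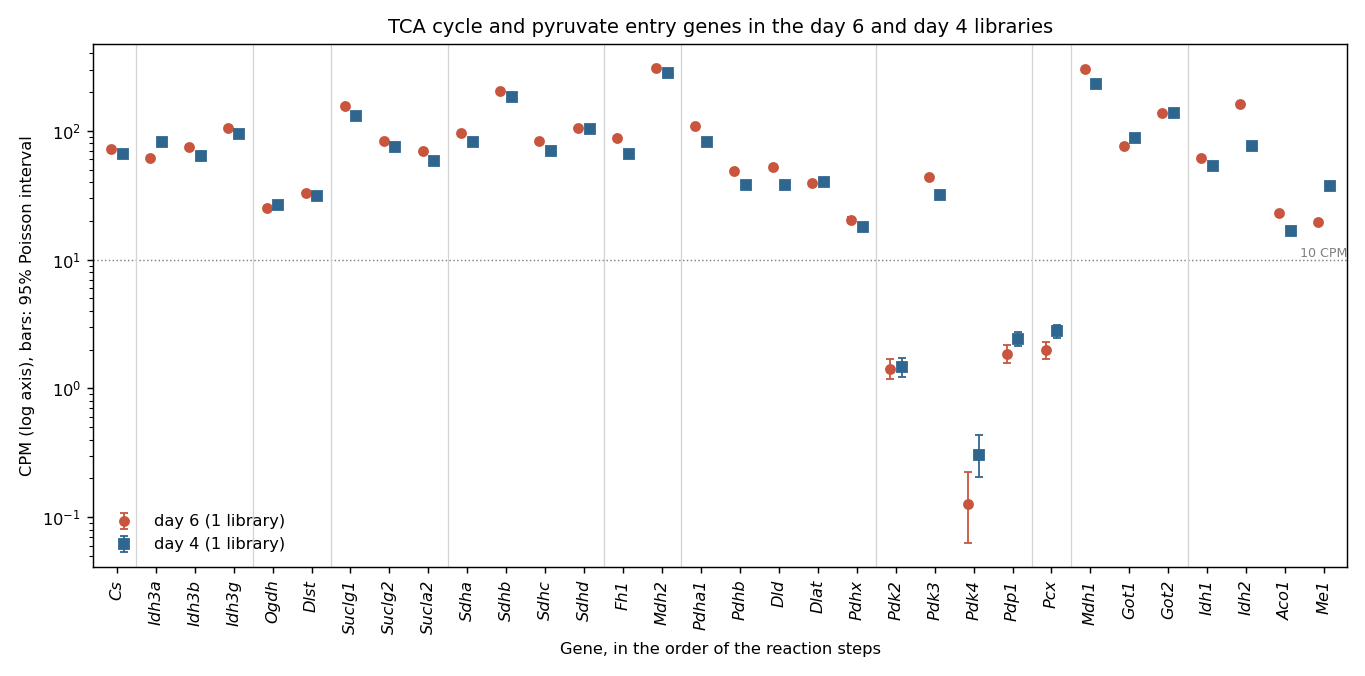
Level of each of the 32 genes in CPM (log axis) in the day 6 library (circles) and the day 4 library (squares), with 95% Poisson intervals, in the order of the reactions. Idh2 lies higher at day 6 and Me1 lower, and Pdk2, Pdk4, Pdp1 and Pcx lie under the dotted line at 10 CPM.

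Idh2 stood at 163 CPM at day 6 and 76.5 CPM at day 4, a ratio of 2.13 (2.07 to 2.19). Me1 stood at 19.5 CPM at day 6 and 37.2 CPM at day 4, a ratio of 0.526 (0.496 to 0.557). These NADPH-making enzymes thus differed in opposite directions between the libraries. The other NADPH-making isocitrate dehydrogenase, the cytosolic Idh1, was at 62.0 CPM at day 6 and 53.0 CPM at day 4, and Aco1, the cytosolic aconitase that doubles as an iron sensor, was at 23.0 and 16.8 CPM. Without cells at the Col4a1 threshold, the log2 ratio of Me1 was -1.34 in place of -0.93, and that of Idh2 was 1.10 in place of 1.09.

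In the pyruvate dehydrogenase complex, Dld, the shared dihydrolipoamide dehydrogenase subunit, had one of the highest ratios, with 52.9 CPM at day 6 and 38.0 CPM at day 4 (1.39, 1.33 to 1.45). The E1 subunits Pdha1 and Pdhb were at ratios of 1.33 and 1.28, while the acetyltransferase core subunit Dlat was at 0.974 (0.931 to 1.02) and the E3-binding subunit Pdhx at 1.13. The subunits of the complex therefore did not share 1 ratio, and their summed level was 271 CPM at day 6 and 217 CPM at day 4. Pdk3, a kinase that switches the complex off, had 43.9 CPM at day 6 and 31.5 CPM at day 4 (1.39, 1.33 to 1.46). The kinases Pdk2 and Pdk4 were near the detection limit, at 1.41 and 0.125 CPM at day 6 and at 1.46 and 0.304 CPM at day 4. Pdp1, the phosphatase that switches the complex on, was at 1.86 CPM at day 6 and 2.43 CPM at day 4, and pyruvate carboxylase (Pcx), which makes oxaloacetate from pyruvate, was at 1.97 and 2.77 CPM.

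Among the measured genes of the cycle itself, the lowest ratio was that of Idh3a, the catalytic subunit of the NAD-linked isocitrate dehydrogenase, with 62.0 CPM at day 6 and 81.5 CPM at day 4 (0.761, 0.735 to 0.788). The regulatory subunits of the same enzyme went the other way, with a ratio of 1.17 (1.13 to 1.22) for Idh3b and 1.11 (1.08 to 1.15) for Idh3g, and their sum with Idh3a was 243 CPM at day 6 and 240.2 CPM at day 4. None of these passed the size limit. Citrate synthase (Cs) was at 1.09, the 2-oxoglutarate dehydrogenase subunits Ogdh and Dlst at 0.938 and 1.05, and the succinyl-CoA synthetase subunits Suclg1, Suclg2 and Sucla2 at 1.19, 1.10 and 1.19. The 4 subunits of succinate dehydrogenase, which also serves as complex II of the respiratory chain, ranged between 1.01 for Sdhd and 1.20 for Sdhc, with Sdha at 1.17 and Sdhb at 1.11. Fumarase (Fh1) was at 1.33 and the mitochondrial malate dehydrogenase Mdh2 at 1.09.

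The malate-aspartate shuttle carries the electrons of cytosolic NADH into mitochondria. Its cytosolic malate dehydrogenase Mdh1 was at 301 CPM at day 6 and 231 CPM at day 4 (1.30, 1.28 to 1.33). Its cytosolic aspartate aminotransferase Got1 was at 76.7 CPM at day 6 and 88.3 CPM at day 4 (0.869, 0.841 to 0.897), the lowest ratio after Me1 and Idh3a among the 28 genes over the minimum. The mitochondrial aminotransferase Got2 was at a ratio of 0.994 (0.970 to 1.02). Got2 has an annotated pseudogene named after it, so its reads may be uncertain. Pseudogenes were sought by gene name only, so those under other names were not looked for in any of the genes.

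Of 31 related genes of the pathway that are not in the set, 22 were measured between the days, with 2 higher by size and 3 lower. The pyruvate carrier subunit Mpc2 was at 47.8 CPM at day 6 and 23.7 CPM at day 4 (ratio 2.02). The kinase Pdk1, which holds pyruvate out of the cycle, was at 33.3 CPM at day 6 and 74.6 CPM at day 4 (0.446). Pck2, the mitochondrial phosphoenolpyruvate carboxykinase, was at 0.533, and Ldhb, a lactate dehydrogenase subunit, at 0.640.

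The level of Idh2 varied among the cell groups of both days. At day 6 it stood at 178 CPM in Six6 cells, 174 CPM in Fezf2 cells, 165 CPM in Wnt8b cells and 166 CPM in Dppa5a cells. It stood at 160 CPM (136 to 186) in day 6 cells with Sox10 UMIs and 116 CPM (91.9 to 143) in day 6 Col4a1 cells, and at 73.9 CPM (48.7 to 107) in the 26 Fgf5 cells of day 6, too few for a ratio. At day 4 it stood at 125 CPM (120 to 131) in Dppa5a cells, 61.9 CPM (59.4 to 64.4) in Fgf5 cells and 55.5 CPM (41.7 to 72.4) in Fezf2 cells. The intervals of the last pair overlap. Those of the Six6, Fezf2, Wnt8b and Dppa5a cells of day 6 lie above these 3, whereas the interval of Col4a1 cells includes the level of day 4 Dppa5a cells, and that of day 6 Fgf5 cells overlaps those of day 4 Fgf5 and Fezf2 cells. The 19 Six6 cells of day 4, also too few for a ratio, were at 184 CPM (134 to 246), an interval that includes the 178 CPM of day 6 Six6 cells. Of the 26 Fgf5 cells of day 6, 34.6% had under 0.5% mitochondrial counts, against 3.16% of all kept day 6 cells. The part of this in their Idh2 level was not tested.

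Six6 cells of day 6 were set against Fgf5 cells of day 4, a comparison in which day and cell group cannot be told apart. Of 28 measured genes, 2 were higher and 1 was lower, beside 16.9% higher and 8.08% lower of all genes, and the median log2 ratio was 0.25, beside 0.14 for all genes. Idh2 was at 178 CPM in Six6 cells and 61.9 CPM in Fgf5 cells (2.87, 2.73 to 3.02), and Me1 at 8.63 CPM in Six6 cells and 37.5 CPM in Fgf5 cells (0.230, 0.199 to 0.265). Aco1 was at 26.7 CPM in Six6 cells and 17.5 CPM in Fgf5 cells (1.52, 1.37 to 1.70), close to the limit, and fell short of it under 4 alternatives. With ratios centred on the median of all genes, 1 gene was higher and 2 were lower, since Idh3a then passed the limit at a log2 ratio of -0.71. Of 22 related genes, 3 were higher and 3 lower, led by Mpc2 (2.58), Pck2 (0.422), the other pyruvate carrier subunit Mpc1 (2.09) and Pdk1 (0.536).

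Within day 4, none of the 28 genes was higher or lower by size in Fgf5 cells against the other cells of the library, where the rule called 0.526% of all genes higher and 2.65% lower. The lowest ratio was that of Idh2, at 61.9 CPM in Fgf5 cells and 86.5 CPM in the other cells (0.715, 0.680 to 0.753). Among 22 related genes 3 were lower, Mpc1 at 0.333, Pdk1 at 0.335 and Ldhb at 0.377.

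Dppa5a cells of day 4 had 1 gene higher and 2 lower of 28 against the other day 4 cells, beside 8.28% higher and 16.3% lower of all genes. Idh2 was at 125 CPM in Dppa5a cells and 64.6 CPM in the others (1.94, 1.83 to 2.04). Idh1 was at 38.3 CPM in Dppa5a cells and 58.0 CPM in the others (0.661), and Dld at 27.3 and 41.1 CPM (0.664), both close to the limit. The number of lower genes was 0 with totals that left out mitochondrial and ribosomal protein genes. It was also 0 with lower marker thresholds and with cells at several markers kept. It was 1 after thinning each cell to 5000 UMIs, with higher marker thresholds and against cells at no marker threshold. The median log2 ratio of all genes was -0.22 here and that of the 28 genes -0.11, and once ratios were centred on all genes, 1 gene was higher and 0 were lower. Much larger ratios stood among the related genes, of which 4 of 22 were higher and 2 lower. Pdk1 was at 209 CPM in Dppa5a cells and 30.3 CPM in the others (6.91), followed by Mpc1 (5.73), Ldhb (5.48) and the glutamate dehydrogenase Glud1 (1.84).

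At day 6 the Dppa5a cells had 3 genes higher and 4 lower of 28 against the other day 6 cells, beside 12.9% higher and 29.3% lower of all genes. Me1 was at 38.0 CPM in Dppa5a cells and 13.5 CPM in the others (2.81, 2.44 to 3.22), Idh3a at 94.3 and 58.7 CPM (1.61, 1.48 to 1.75) and Got1 at 112 and 73.7 CPM (1.52, 1.41 to 1.64). Aco1 was lower, at 12.4 CPM in Dppa5a cells and 24.0 CPM in the others (0.515, 0.410 to 0.640), as were Mdh1 at 175 and 314 CPM (0.558), Dld at 33.1 and 54.7 CPM (0.605) and Got2 at 92.4 and 141 CPM (0.657). The shuttle enzymes of the cytosol, Mdh1 and Got1, thus lay on opposite sides. The median log2 ratio was -0.21 for the 28 genes and -0.28 for all genes, and after centring on all genes 4 were higher and 1 was lower, with Dld (log2 -0.45), Mdh1 (-0.57) and Got2 (-0.33) inside the limit. Got1 fell short of the limit under 4 alternatives, and Aco1 when cells at several markers were kept. The number of lower genes was 2 with totals that left out mitochondrial and ribosomal protein genes, and 2 with cells at several markers kept. It was 3 with all barcodes unfiltered, 3 with lower marker thresholds and 5 as a mean over cells, in place of 4. Among 21 related genes 5 were higher and 3 lower, led by Pdk1 at 155 CPM in Dppa5a cells, 7.78 times the level in the others (7.19 to 8.42), Mpc1 (6.14), Ldhb (4.91) and Glud1 (2.43).

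Dppa5a cells of day 6 against those of day 4 gave 0 calls of 28, beside 6.18% higher and 2.53% lower of all genes. Ratios ran between 0.832 for Got2 and 1.33 for Idh2, which was at 166 CPM in day 6 Dppa5a cells and 125 CPM in day 4 Dppa5a cells (1.23 to 1.43). Of 20 related genes only Mpc1 was called, at 79.0 CPM in day 6 cells and 45.3 CPM in day 4 cells (1.74). All 11 UMIs of Pdk4 in the day 6 library lay in Dppa5a cells, with 9 UMIs, or in cells at several markers, with 2 UMIs, and 16 of its 30 UMIs at day 4 lay in Dppa5a cells.

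Six6 cells against Dppa5a cells of the same day 6 library gave 6 genes higher and 2 lower of 28, beside 32.3% higher and 13.2% lower of all genes. Aco1 was at 26.7 CPM in Six6 cells and 12.4 CPM in Dppa5a cells (2.16, 1.72 to 2.73), Mdh1 at 351 and 175 CPM (2.01, 1.89 to 2.13) and Dld at 60.1 and 33.1 CPM (1.82, 1.58 to 2.09). Idh1 (1.79), Got2 (1.57) and Sdhd (1.54), a membrane anchor of succinate dehydrogenase, were higher as well, with Got2 and Sdhd close to the limit. The number of higher genes was 4 with all barcodes unfiltered, and 4 with totals that left out mitochondrial and ribosomal protein genes. It was 4 with cells at several markers kept, 5 with lower or higher marker thresholds and 8 after thinning. Me1 was at 8.63 CPM in Six6 cells and 38.0 CPM in Dppa5a cells (0.227, 0.189 to 0.272), and Idh3a at 55.7 and 94.3 CPM (0.590, 0.538 to 0.648). The median log2 ratio was 0.23 for the 28 genes and 0.30 for all genes, and after centring on all genes 2 were higher and 4 were lower, so the balance of the calls depended on the scaling. Idh2 was at 178 CPM in Six6 cells and 166 CPM in Dppa5a cells, inside the limit. Of 20 related genes 3 were higher and 5 lower, led by Pdk1 (0.102), Mpc1 (0.183), Ldhb (0.280) and Glud1 (0.384).

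**Figure D2:**
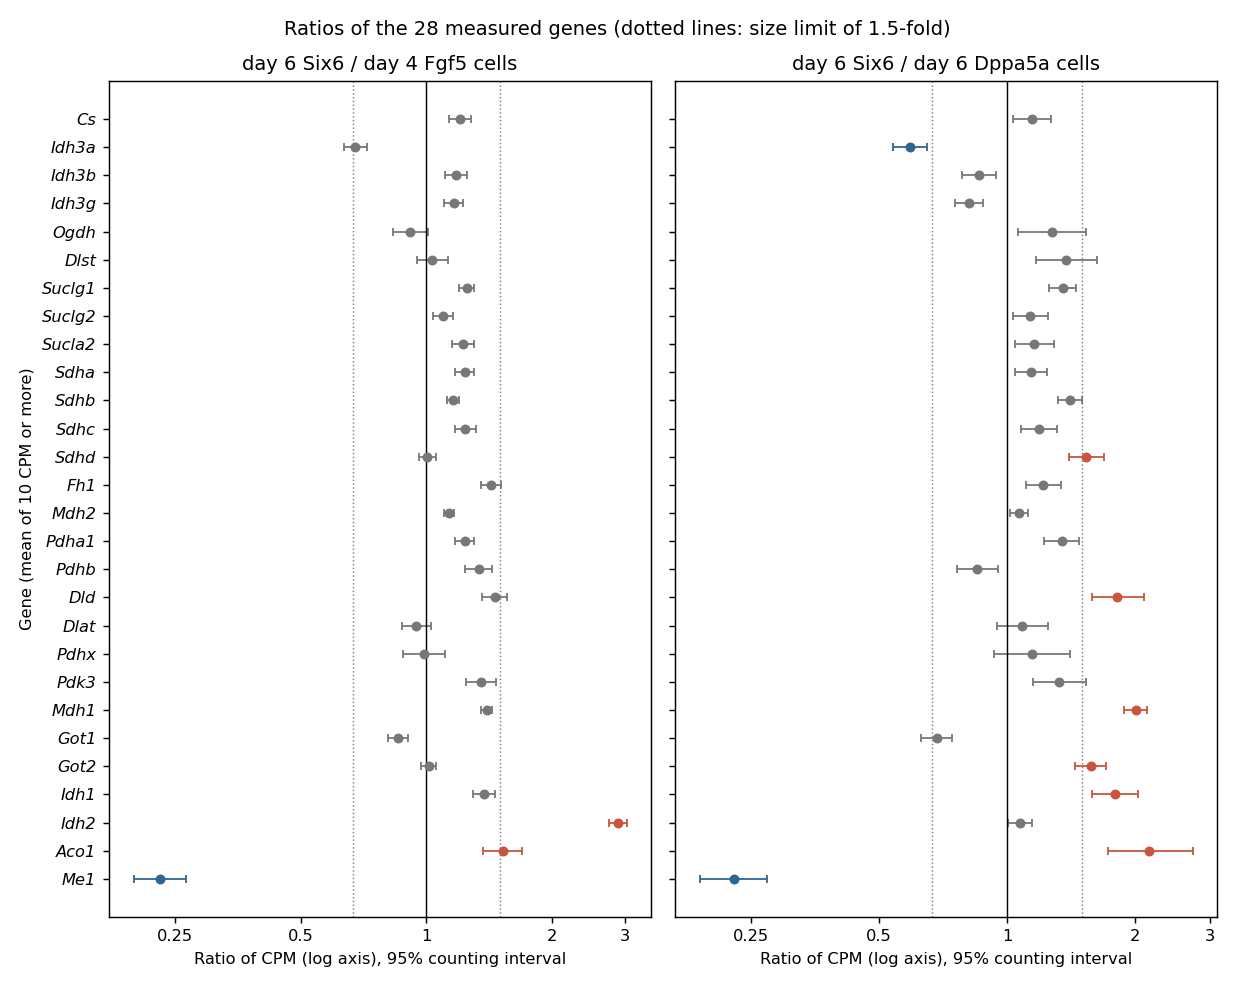
Ratio of CPM (log axis) with 95% counting intervals for the 28 measured genes in day 6 Six6 cells over day 4 Fgf5 cells (left) and over day 6 Dppa5a cells (right), with dotted lines at 1.5-fold either way and called genes in colour. Me1 lies far left in both panels, at 0.230 and 0.227, while Idh2 lies right of the limit only against Fgf5 cells.

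Against the other cells of day 6, Six6 cells had 0 genes higher and 1 lower of 28, beside 1.42% higher and 3.01% lower of all genes. Me1 was at 8.63 CPM in Six6 cells and 18.8 CPM in the others (0.458, 0.394 to 0.530). Set against the 2917 cells at no marker threshold, which were at 12.0 CPM, the log2 ratio of Me1 was -0.47 in place of -1.13 and no longer passed the limit. Those cells also held eye field genes, with Rax at 75.6 CPM and Pax6 at 232 CPM, against 178 and 383 CPM in Six6 cells. Of 22 related genes only Pdk1 was called, at 15.9 CPM in Six6 cells and 38.7 CPM in the others (0.411).

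Fezf2 cells of day 6 had 0 calls of 28, beside 0.977% higher and 1.48% lower of all genes, with ratios between 0.766 for Idh1 and 1.18 for Suclg2. Related genes called there were Mpc1 (0.416), Ldhb (0.503) and Ldha, the main lactate dehydrogenase subunit (1.51). Wnt8b cells of day 6 also had 0 calls of 28, beside 2.27% higher and 2.6% lower of all genes, with ratios between 0.870 for Got1 and 1.28 for Idh1. Ldhb (0.388) and Pdk1 (0.421) were lower in Wnt8b cells. Idh1 therefore lay at opposite ends of these ranges, with 48.7 CPM (Fezf2 cells) and 78.2 CPM (Wnt8b cells), although neither ratio passed the limit.

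The 63 cells with Sox10 UMIs had 2 genes lower and 0 higher of 28, beside 8.51% lower and 6.76% higher of all genes. Got1 was at 48.9 CPM in Sox10 cells and 77.4 CPM in the other day 6 cells (0.631, 0.467 to 0.836). Me1 was at 4.99 CPM in Sox10 cells, from 5 UMIs, and 15.7 CPM in the others (0.317, 0.103 to 0.742). Both calls ended against cells at no marker threshold. Related genes called were Ldhb (0.181), Pdk1 (0.220), the ATP citrate lyase Acly (1.64) and the citrate carrier Slc25a1 (0.643).

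**Figure D3:**
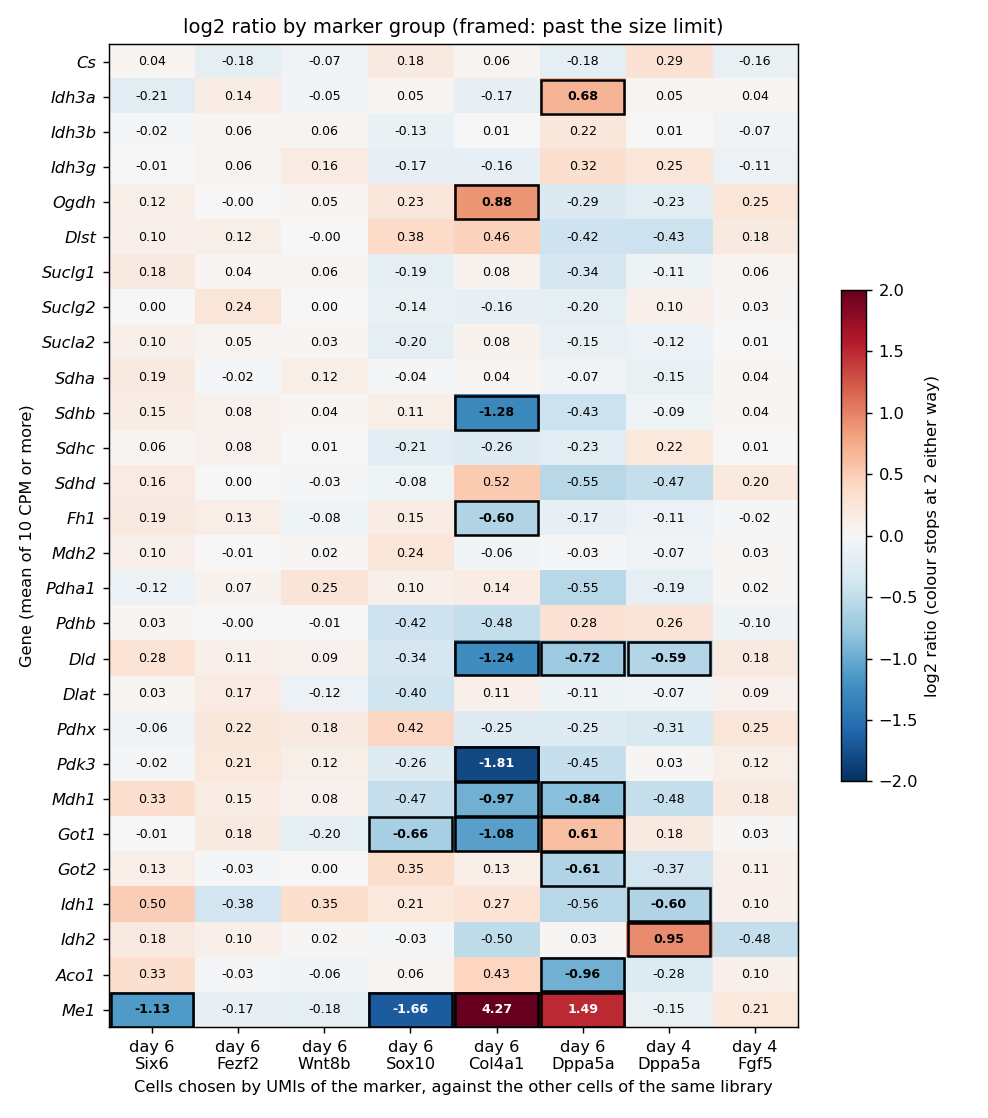
log2 ratio of each of the 28 measured genes (rows) in each marker group over the other cells of its library (columns, where Sox10 stands for cells with 1 or more UMIs), red for higher and blue for lower, with called genes framed. Most frames lie in the columns of Col4a1 cells and day 6 Dppa5a cells, with none for Fezf2, Wnt8b or Fgf5 cells. Of all genes, the same rule called 30.2% higher and 20.4% lower in Col4a1 cells, and 12.9% higher and 29.3% lower in day 6 Dppa5a cells.

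The 64 Col4a1 cells of day 6 had 2 genes higher and 6 lower of 28 against the other day 6 cells, beside 30.2% higher and 20.4% lower of all genes. Me1 was at 259 CPM (223 to 300) in Col4a1 cells and 13.5 CPM in the others, a ratio of 19.2 (16.4 to 22.5). After thinning every cell to 5000 UMIs, 59.4% of Col4a1 cells and 4.64% of Six6 cells held a Me1 UMI (85.9% and 10.8% without thinning), with medians of 9681.5 UMIs in Col4a1 cells and 12832 in Six6 cells. Ogdh, the E1 subunit of 2-oxoglutarate dehydrogenase, was at 45.1 CPM in Col4a1 cells and 24.5 CPM in the others (1.84, 1.25 to 2.60), a call that ended after thinning.

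Sdhb, the iron-sulphur subunit of succinate dehydrogenase, was at 84.6 CPM in Col4a1 cells and 206 CPM in the others (0.411, 0.314 to 0.529). Its partner Sdha, the flavoprotein subunit, was at 98.7 CPM and Sdhd at 149 CPM in Col4a1 cells, and neither was called. Pdk3 was at 12.7 CPM in Col4a1 cells and 44.4 CPM in the others (0.286, 0.131 to 0.543), Dld at 22.6 and 53.2 CPM (0.424, 0.242 to 0.690), Got1 at 36.6 and 77.4 CPM (0.474, 0.309 to 0.694), Mdh1 at 155 and 303 CPM (0.511, 0.420 to 0.616) and Fh1 at 57.8 and 87.8 CPM (0.658, 0.472 to 0.894). The shuttle genes Mdh1 and Got1 were thus both lower here, whereas Got2 was at 149 CPM and not called. The call of Fh1 ended under 4 alternatives, that of Dld with cells at several markers kept and that of Got1 with higher marker thresholds. Pdk2 was at 11.3 CPM in Col4a1 cells, against 1.41 CPM over the whole day 6 library, but under the minimum as a mean. Its counts were low. All 148 day 6 cells at the Col4a1 threshold, other markers allowed, held 15 of the 124 Pdk2 UMIs of that library.

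Col4a1 cells stood apart in quality measures as well. The median share of mitochondrially encoded UMIs was 4.82% in Col4a1 cells and 2.48% over the day 6 library, and the part of this in the results was not tested. The 6 primitive endoderm genes summed to 15336 CPM in Col4a1 cells, and to between 99.7 and 208 CPM in the other marker groups compared at day 6. Another 84 day 6 cells passed the Col4a1 and Dppa5a thresholds together, with Me1 at 288 CPM (258 to 321), Pdk3 at 14.7 CPM and Sdhb at 138 CPM (118 to 162), above the 84.6 CPM (64.5 to 109) of cells with Col4a1 alone. At day 4, the 34 cells at the Col4a1 threshold held 394 CPM of Me1 (340 to 454). Of these, 27 also passed the Dppa5a threshold and 7 passed that of Col4a1 alone. Cells at the Col4a1 threshold, alone or with other markers, were 2.23% of day 6 cells and held 30.1% of the Me1 UMIs of the library. At day 4 they were 0.417% of cells and held 5.13%.

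Among 23 related genes 7 were higher and 4 lower in Col4a1 cells. Ldhb was at 38.1 CPM in Col4a1 cells and 264 CPM in the others (0.144). Me2, the mitochondrial malic enzyme, was at 140.2 CPM in Col4a1 cells and 46.8 CPM in the others (2.98). The dicarboxylate carrier Slc25a10 was at a ratio of 2.48.

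**Figure D4:**
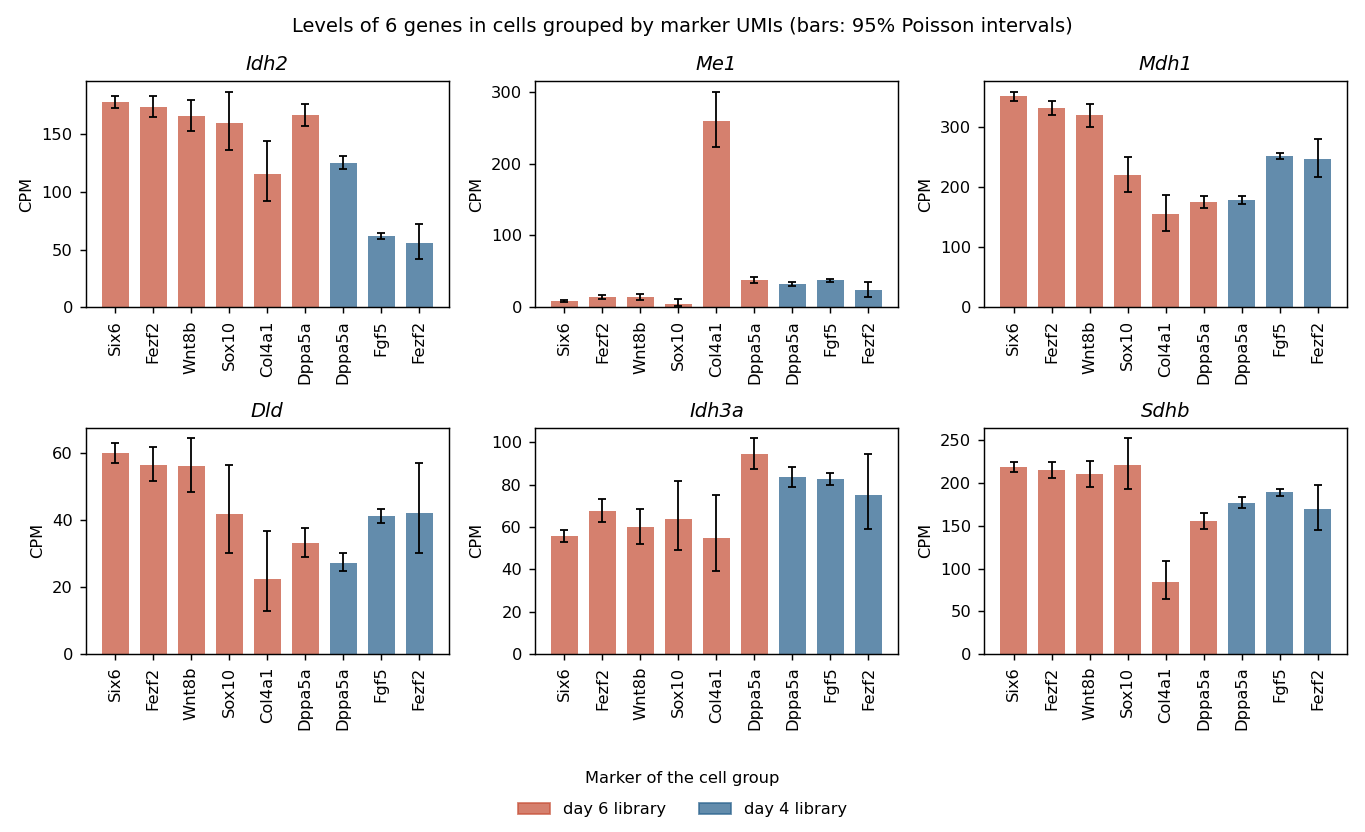
Levels of Idh2, Me1, Mdh1, Dld, Idh3a and Sdhb in CPM (bars from 0, lines are 95% Poisson intervals) in the day 6 groups (red; Sox10 stands for cells with 1 or more UMIs) and the day 4 groups (blue). Me1 reaches 259 CPM in Col4a1 cells and 38.0 CPM or less in the other groups plotted, Idh2 is lowest in Fgf5 and Fezf2 cells of day 4, and Mdh1 is lowest in Col4a1 and Dppa5a cells.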

How the data were processed

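Per the labels and the study's methods, the authors pooled 3 biological experiments per day, dissociated them with papain, made 10x libraries and aligned to mm10. Cell Ranger 2.0.1 and Seurat 2.3.4 stand in the processing notes of the submitters, while the study's methods name later versions of both, and which made the matrices is not given in the sources used here. Values in the deposited matrices are counts of UMIs, with no normalization. Cells with 500 to 5000 genes, 500 to 26000 UMIs, at most 10% mitochondrial, at least 20% ribosomal protein and at most 0.5% haemoglobin counts were kept. No doublet caller was run and free RNA was not removed. Markers needed 2 UMIs (Fgf5, Six6, Fezf2, Wnt8b, Sox10), 5 (Dppa5a) or 10 (Col4a1), and groups under 50 cells got no ratio. UMIs were summed per group. Levels have exact Poisson intervals, and ratios exact conditional binomial intervals. Members, lists and thresholds were chosen with earlier results of these data known. Every called member was named (8 at most per comparison), the 3 highest and 3 lowest between days, and up to 4 called related genes, of which 1 is not reported here. Calling was tested on simulated data. Analyses used Python 3.11.15 with numpy 2.4.6, scipy 1.17.1, pandas 2.3.3 and matplotlib 3.10.9.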

Additional observations from a re-analysis of the deposited data

How the results depend on the processing

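No single gene called by size changed direction under any alternative run. Centred on the median of all genes, however, the median log2 ratio of the 28 genes changed sign for Six6 over Dppa5a cells of day 6 (-0.08 in place of 0.23), for Dppa5a cells of day 6 (0.06 in place of -0.21) and of day 4 (0.11 in place of -0.11), for Fgf5 cells (-0.06 in place of 0.04) and for Wnt8b cells (-0.02 in place of 0.02). Under other settings medians near 0 also changed sign, for Wnt8b, Fgf5, Sox10, Col4a1 and day 4 Dppa5a cells. Over 12 alternatives, 118 counts of called genes kept within 1.5 times and 15 did not, leaving aside other marker thresholds for the Sox10 group. Without a minimum level, the number of called genes was 2 for Six6 cells, 1 for Fezf2 cells, 5 for day 4 Dppa5a cells and 2 for Fgf5 cells, each against the other cells of its day, since genes under 10 CPM then entered. With cells at several markers kept, it was 4 for day 6 Dppa5a cells and 1 for day 4 Dppa5a cells against the other cells, and 1 for Dppa5a cells of day 6 against day 4 (Me1). For day 4 Dppa5a cells it was also 1 with totals that left out mitochondrial and ribosomal protein genes, 1 with centring on the median of all genes and 1 with lower marker thresholds. For cells with Sox10 UMIs it was 1 as a mean over cells, 4 after thinning, 1 without cells at the Col4a1 threshold, 1 with lower thresholds for the other markers and 0 against cells at no marker threshold, which also gave 0 for Six6 cells. The settings without cells at the Col4a1 threshold and against cells at no marker threshold, and the Sox10 group, were chosen after seeing the data. The planned comparison of cells with 2 or more Sox10 UMIs was not run because 25 cells were too few. Other causes of these shifts were not tested. Idh2 between the days kept a log2 ratio of 0.95 or more and Me1 of -0.80 or less under every alternative run. No paired analysis was possible because each day was 1 library. With 64 Col4a1 cells and 63 cells with Sox10 UMIs, low counts set wide intervals there.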
